A study of Homo sapiens with 14 samples.

Results

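The 34 genes described here are direct targets of the tumour suppressor p53 together with the CIP/KIP inhibitors of cyclin-dependent kinases, taken from a list of gene symbols. All 34 were found in the table of transcript levels, each at the locus of highest mean level for its symbol, and all passed the filter on low values, so they are 34 of the 13137 named loci tested. RNA came from MCF-10A cells, a human line of breast epithelium that is immortal but forms no tumours, taken 2 days after they were infected with retroviruses. The 14 libraries form 7 groups of 2: cells with the empty Hygro vector, cells with YAP 5SA (a hyperactive form of YAP, the coactivator of TEAD factors), cells with the empty Puro vector, and cells with 1 of 4 forms of MRTFB, a coactivator of the transcription factor SRF that actin monomers hold in check. Every MRTFB form carries the dN change, which removes binding to G-actin. MRTFB dN has only that change, MRTFB dN dPY has also lost YAP binding, MRTFB dN Y305A has also lost SRF binding, and MRTFB dN Y305A/dPY has lost both. The labels do not name the vector that each construct was set against, so every construct is compared with both vectors. They also do not say that the replicates came from separate infections, and the p-values then measure only the spread between these libraries. In bulk RNA a lower level in each cell and fewer cells with the transcript cannot be told apart.

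p53 is a transcription factor that is held low by the ubiquitin ligase MDM2 and accumulates after DNA damage, oncogene activity or nucleotide and ribosome stress. Its targets feed back on p53 itself, stop the cell cycle, sensitise cells to death, repair DNA and adjust metabolism. Many of them are also driven by other factors, among them p63 in basal epithelium and the stress factor ATF4. MCF-10A cells are known for a deletion that takes out CDKN2A and CDKN2B, so that of the inhibitors of cyclin-dependent kinases the CIP/KIP proteins p21 (CDKN1A), p27 (CDKN1B) and p57 (CDKN1C) are prominent in this line.

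Levels are FPKM, which scales fragments by the length of the gene and the size of the library and carries no counts, so no counting interval can be given. Relative depth, estimated from the step between low values, ran from 0.314 in Puro vector replicate 1 to 1.39 in YAP 5SA replicate 1, with Hygro vector replicate 1 set to 1. Puro vector replicate 1 stood apart from the other libraries: 4780 loci without a gene name were at 1 FPKM or more there, against 211 to 669 in the rest. MRTFB dN dPY replicate 1 holds no value for chromosome 7 after PPIA or for chromosomes 8, 9 and X. TNFRSF10B, TP53INP1, EDA2R and RRM2B therefore rest on 1 library in that group. The introduced genes matched the labels: MKL2, the table's symbol for MRTFB, read 165 to 610 FPKM in the 8 MRTFB libraries against 3.06 to 6.60 in the other 6, and YAP1 read 625 and 529 in YAP 5SA against 18.3 to 50.9 in the other 12. All 10 markers of basal mammary epithelium had a mean of at least 1 FPKM and the hormone receptors ESR1 and PGR did not, as is known for MCF-10A. Of the markers of leukocytes, endothelium and fibroblasts, 2 of 6, 1 of 4 and 2 of 7 reached that mean. Summed over each list, the leukocyte markers read 297 to 807 FPKM across the libraries. The endothelial markers read 0.0952 to 14.8 and the fibroblast markers 0.828 to 16.5. The sum of the basal markers ran from 2475 to 47820.

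26 of the 34 genes passed the test (adjusted p under 0.05, limma on log2(FPKM + 1) over all tested loci) in at least 1 of 16 comparisons. The 8 that passed in none were PPM1D, the phosphatase WIP1 that switches p53 off, CCNG1 (cyclin G1), BAX, TNFRSF10B, TP53INP1, EDA2R, ZMAT3 and POLH. The share of all loci that passed in at least 1 comparison was not computed, so whether 26 of 34 exceeds it was not tested. In MRTFB dN against the Puro vector alone, 36.8% of all loci passed. Differences are given on the scale of log2(FPKM + 1), which understates the change of low genes, with the SE of the fit and 2 libraries in each group. Each call was recomputed in 20 refits, 14 of them without 1 library and 6 with another setting, and a call is said to hold or to be lost in these. The share of all loci called was not computed for the refits without 1 library. Counts of the 34 genes in those refits therefore have no background. A call can be lost there at the same log2 difference, as that of MDM2 in MRTFB dN dPY against the Hygro vector (-1.31) was without either YAP 5SA replicate. Mean levels ran from 2.84 FPKM for PPM1D to 539 for SFN. The locus of TP53I3 also carries the name SF3B6, and the 2 genes cannot be read apart. The locus of BBC3 also carries MIR3191. MDM2, BBC3, FAS and TP53I3 have further loci of lower level under their symbol, which were not used. That of BBC3 read 2.67 and 1.71 FPKM in the Puro vector and at most 1.55 in every other library. For FAS it was 4.42 and 2.69 against at most 1.87, and for TP53I3 at most 2.03 in any library.

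**Figure D1:**
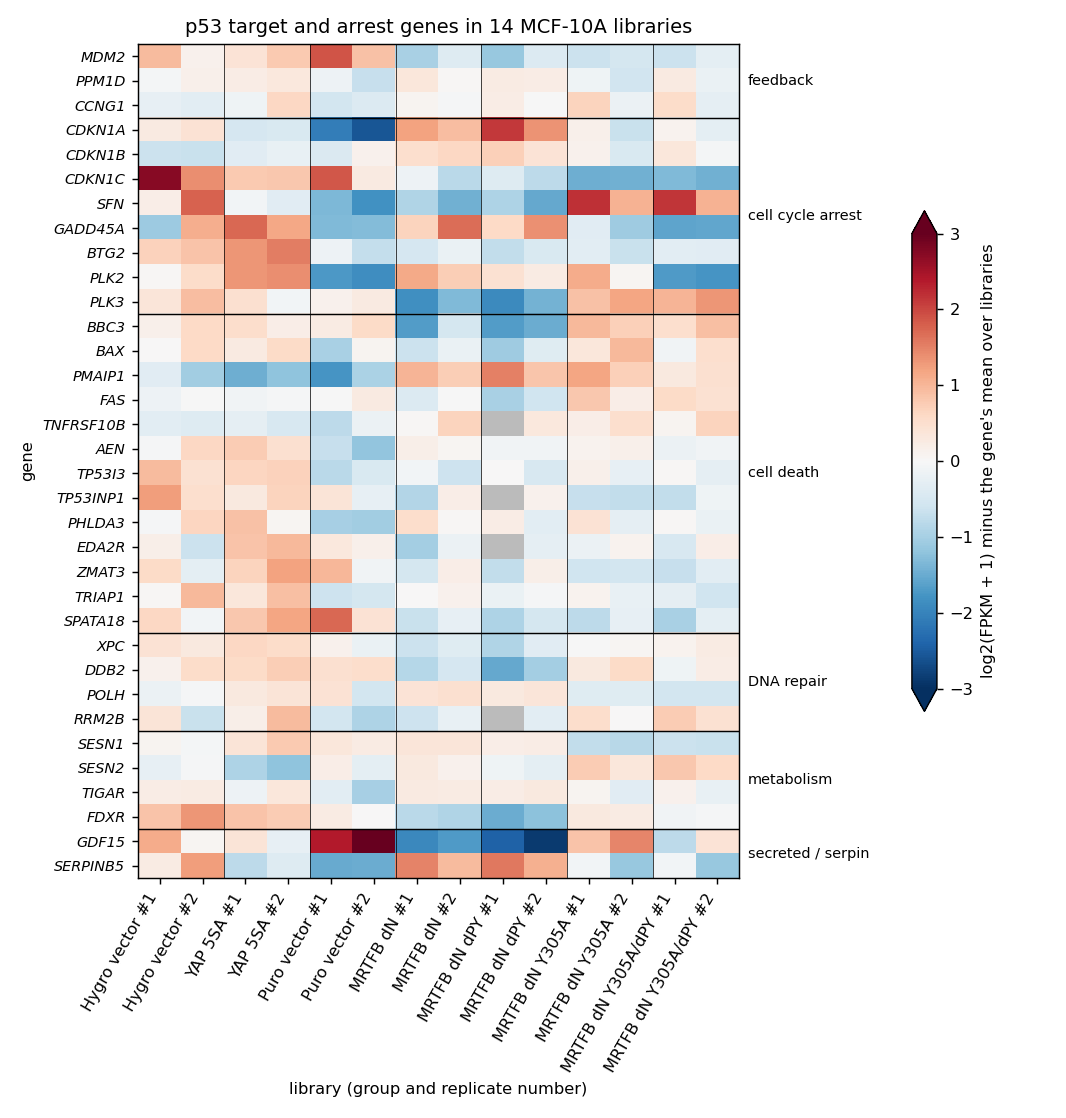
Level of each of the 34 genes (rows, grouped by role) in each of 14 libraries (columns), as log2(FPKM + 1) minus the mean of the gene over the libraries; colours are clipped at 3 and -3, and grey marks the 4 missing values of MRTFB dN dPY replicate 1. CDKN1A is lowest in the 2 Puro vector libraries, and GDF15 and PLK3 are lowest in the 4 libraries of the MRTFB forms that keep SRF binding.

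The 2 empty vectors already differed in these genes. Against the Hygro vector, the Puro vector had 1 of the 34 higher and 10 lower, while of all tested loci 5.68% were higher and 8.54% lower. The median log2 difference was -0.54 over the 34 genes and -0.07 over all loci. Lower were CDKN1A, SFN, BTG2, PLK2, AEN, TP53I3, PHLDA3, TRIAP1, FDXR and SERPINB5, and higher was GDF15. The count was 2 without Hygro vector replicate 2 and 7 without Puro vector replicate 1. A change against 1 vector alone is therefore given as that, and the genes called the same way against both are named for each construct.

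MRTFB dN raised 8 of the 34 genes and lowered 8 against the Puro vector, where 21.8% of all loci were higher and 15% lower. Without MRTFB dN replicate 1 the count of called genes was 9 in place of 16. Against the Hygro vector, 2 were higher and 9 lower, where 12% and 7.09% of all loci were. The median log2 difference against the Hygro vector was -0.29 over the 34 genes and -0.02 over all loci. That count was 7 without Hygro vector replicate 2 and 4 without MRTFB dN replicate 1, in place of 11. Called the same way against both vectors were 7 genes: PMAIP1 was higher, and CDKN1C, PLK3, BBC3, DDB2, FDXR and GDF15 were lower. The comparisons with the 2 vectors share the libraries of the construct. For none of the constructs was the share of all loci called the same way against both vectors computed. Whether such calls are more frequent among the 34 genes was therefore not tested. MRTFB dN dPY gave 7 higher and 9 lower against the Puro vector (background 21% and 14.8%), and 3 and 10 against the Hygro vector (background 12.3% and 8.25%). The second count was 8 without MRTFB dN dPY replicate 1, in place of 13. For this form the same 7 genes were called against both vectors, with CDKN1A higher and MDM2 lower in addition.

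**Figure D2:**
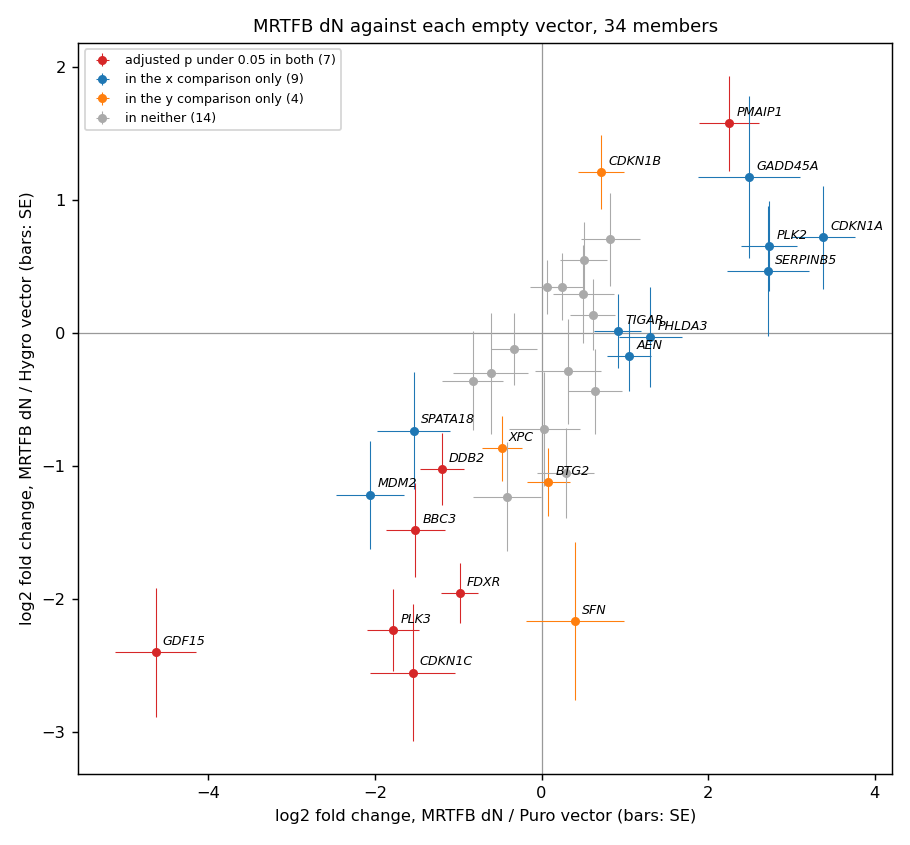
Log2 difference in level between MRTFB dN and the Puro vector (x axis) and between MRTFB dN and the Hygro vector (y axis) for 34 genes, with bars of 1 SE; the axes share the 2 MRTFB dN libraries. The 7 genes called against both vectors (red) are PMAIP1 at the upper right and CDKN1C, PLK3, BBC3, DDB2, FDXR and GDF15 at the lower left.

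For the 2 forms that cannot bind SRF, few of the genes passed against the Hygro vector, 8.82% in each, where 2.61% and 2.68% of all loci did. MRTFB dN Y305A had 1 of the 34 genes higher and 2 lower against it (background 1.33% and 1.28%), and 5 higher and 5 lower against the Puro vector (background 14.2% and 11%). MRTFB dN Y305A/dPY had 0 higher and 3 lower against the Hygro vector (background 1.3% and 1.38%), and 6 and 5 against the Puro vector (background 15% and 11.4%). Under median-of-ratios scaling the last split was 4 and 5. The counts against the Puro vector depended on single libraries: without replicate 1 of the construct each fell to 1 gene, and without Puro vector replicate 1 each was 6. Against the Hygro vector, the count of 3 for MRTFB dN Y305A was 1 without either replicate of the Hygro vector, YAP 5SA or MRTFB dN Y305A. The count of 3 for MRTFB dN Y305A/dPY was 1 without Hygro vector replicate 2 and 0 without either replicate of the construct. CDKN1C was lower against both vectors in both forms, and PMAIP1 was higher against both vectors in MRTFB dN Y305A.

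Among the genes of cell cycle arrest, CDKN1A encodes p21, the inhibitor of cyclin-dependent kinases that is the best known arrest target of p53. In FPKM, CDKN1A read 316 and 353 under the Hygro vector, 61.7 and 43.7 under the Puro vector and 185 and 190.5 under YAP 5SA. With MRTFB forms, CDKN1A was at 610.1 and 497 in MRTFB dN, 1146 and 665 in MRTFB dN dPY, 294 and 166 in MRTFB dN Y305A, with 285 and 216 in MRTFB dN Y305A/dPY. The Puro vector libraries were the lowest of all 14, and all 4 libraries of MRTFB dN and MRTFB dN dPY lay above the other 10. CDKN1A was lower in the Puro than in the Hygro vector, by a log2 difference of -2.66 ± 0.39 (adjusted p = 0.0054). CDKN1A in MRTFB dN rose against the Puro vector by 3.38 ± 0.39, adjusted p = 0.00013, and the difference against the Hygro vector, 0.72 ± 0.39, adjusted p = 0.24, did not pass. In MRTFB dN Y305A/dPY it rose against the Puro vector by 2.23 ± 0.39, adjusted p = 0.0047, a call lost in 1 of the 20 refits. MRTFB dN dPY was higher against both (4.05 ± 0.39, adjusted p = 3.8e-05 for Puro; 1.39 ± 0.39, adjusted p = 0.028 for Hygro). The second of these calls was lost without either replicate of the Hygro vector or MRTFB dN dPY replicate 1 (adjusted p 0.0734 to 0.2) or with no filter on low values (adjusted p = 0.0522). The MRTFB dN Y305A level was between those of the vectors and differed from the Puro vector by 2.07 ± 0.39, adjusted p = 0.0073, a call lost without MRTFB dN Y305A replicate 1 (adjusted p = 0.0867).

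CDKN1B encodes p27, which holds cells in quiescence. For CDKN1B the replicates read 6.87 and 6.67 in the Hygro vector, 8.001 and 12.3 in the Puro vector and 8.68 and 9.43 in YAP 5SA (FPKM). CDKN1B read 16.3 and 17.7 in MRTFB dN, 18.9 and 15.2 in MRTFB dN dPY, 12.4 and 7.87 in MRTFB dN Y305A, with 14.3 and 10.7 in MRTFB dN Y305A/dPY. The Hygro vector libraries were the lowest and did not overlap with any other group, whereas the Puro vector range overlapped with both Y305A forms. CDKN1B rose against the Hygro vector by 1.21 ± 0.28, adjusted p = 0.011 in MRTFB dN and by 1.21 ± 0.28, adjusted p = 0.011 in MRTFB dN dPY. The first call was lost without MRTFB dN replicate 1 (adjusted p = 0.0516) or MRTFB dN replicate 2 (adjusted p = 0.0711), and the second without MRTFB dN dPY replicate 1 (adjusted p = 0.0818). Against the Puro vector the MRTFB dN difference was 0.72 ± 0.28, adjusted p = 0.063, which did not pass.

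CDKN1C encodes p57, an imprinted inhibitor of cyclin-dependent kinases. CDKN1C stood at 18.3 and 6.63 FPKM in replicates 1 and 2 of the Hygro vector, 9.55 and 2.48 in the Puro vector and 3.99 and 4.07 in YAP 5SA. With MRTFB forms, CDKN1C was at 1.60 and 0.646 in MRTFB dN, 1.24 and 0.674 in MRTFB dN dPY, 0.0558 and 0.0631 in MRTFB dN Y305A, with 0.156 and 0.0751 in MRTFB dN Y305A/dPY. The 8 MRTFB libraries all lay below the 6 others, and within them the 4 libraries of the Y305A forms lay below the 4 that keep SRF binding. CDKN1C fell against the Hygro vector by a log2 difference of -2.55 ± 0.51, adjusted p = 0.0053 in MRTFB dN, -2.65 ± 0.51, adjusted p = 0.0041 in MRTFB dN dPY, -3.52 ± 0.51, adjusted p = 0.0069 in the Y305A form and -3.44 ± 0.51, adjusted p = 0.0089 in the form with both changes. The call for MRTFB dN was lost without MRTFB dN replicate 2 (adjusted p = 0.0561) and that for MRTFB dN Y305A with no filter on low values (adjusted p = 0.0522). That for MRTFB dN Y305A/dPY was lost without MRTFB dN Y305A/dPY replicate 1 (adjusted p = 0.0587) or MRTFB dN Y305A/dPY replicate 2 (adjusted p = 0.0641) or with no filter on low values (adjusted p = 0.0596). The differences of CDKN1C from the Puro vector were -1.55 ± 0.51, adjusted p = 0.036 in MRTFB dN, -1.65 ± 0.51, adjusted p = 0.029 in MRTFB dN dPY, -2.52 ± 0.51, adjusted p = 0.0093 in the Y305A form and -2.44 ± 0.51, adjusted p = 0.0092 in the form with both changes. For MRTFB dN this call was lost without either replicate of YAP 5SA, Puro vector replicate 1 or either replicate of MRTFB dN (adjusted p 0.0522 to 0.268) or with no filter on low values (adjusted p = 0.119) or with the zeros of MRTFB dN dPY replicate 1 kept as values (adjusted p = 0.0527). For MRTFB dN dPY it was lost without Puro vector replicate 1 or either replicate of MRTFB dN dPY (adjusted p 0.0735 to 0.215) or with no filter on low values (adjusted p = 0.102). The call of the Y305A form was lost without Puro vector replicate 1 (adjusted p = 0.0551) or MRTFB dN Y305A replicate 1 (adjusted p = 0.0809). That of the form with both changes was lost without Puro vector replicate 1 (adjusted p = 0.0537) or MRTFB dN Y305A/dPY replicate 1 (adjusted p = 0.0648). Without Puro vector replicate 1, the library that stood apart, the MRTFB dN difference was -0.75 and that of MRTFB dN dPY -0.85. The scale of log2(FPKM + 1) understates the change of a gene that reaches values this low: the difference of the Y305A form from MRTFB dN was -0.97 ± 0.51, adjusted p = 0.26, which did not pass.

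**Figure D3:**
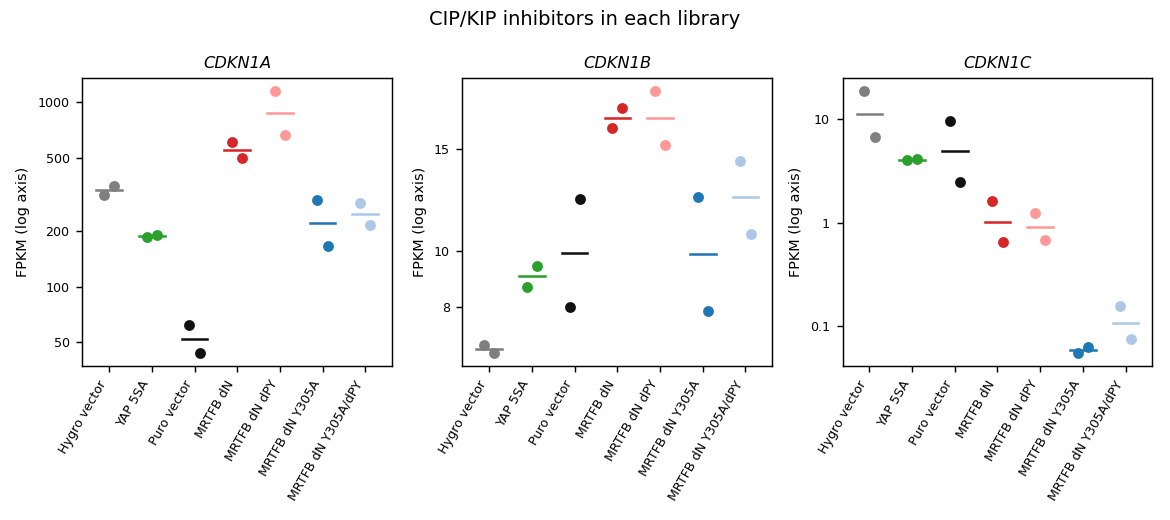
FPKM on log axes of CDKN1A, CDKN1B and CDKN1C in the 2 libraries of each of 7 groups (points; the line is the geometric mean of the 2). CDKN1A is highest in the 4 libraries of MRTFB dN and MRTFB dN dPY, and CDKN1C is lower in the 8 MRTFB libraries than in the other 6.

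SFN encodes 14-3-3 sigma, which keeps cyclin B and its kinase in the cytoplasm and is made in stratified and basal epithelium. In FPKM, SFN read 394 and 1184 under the Hygro vector, 134 and 97.8 under the Puro vector and 325 and 274 under YAP 5SA. SFN read 183 and 126 in MRTFB dN, 180.4 and 118 in MRTFB dN dPY, 1579 and 709 in MRTFB dN Y305A, with 1528 and 716 in MRTFB dN Y305A/dPY. The 4 libraries with MRTFB dN or MRTFB dN dPY read 118 to 183 FPKM, below both Hygro vector libraries and within or just above the range of the Puro vector. SFN fell against the Hygro vector, with log2 differences of -2.16 ± 0.59, adjusted p = 0.027 in MRTFB dN and -2.22 ± 0.59, adjusted p = 0.022 in MRTFB dN dPY. The former was lost without Hygro vector replicate 2 or either replicate of MRTFB dN (adjusted p 0.0759 to 0.177) or with no filter on low values (adjusted p = 0.0904), and the second without Hygro vector replicate 2 or either replicate of MRTFB dN dPY (adjusted p 0.0566 to 0.16) or with no filter on low values (adjusted p = 0.0784). Both Y305A forms were above the Puro vector (3.20 ± 0.59, adjusted p = 0.0071; 3.18 ± 0.59, adjusted p = 0.0060), calls lost without replicate 1 of each construct. Neither form passed against the Hygro vector for SFN, and Hygro vector replicate 2 lay within the range of both.

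GADD45A, BTG2, PLK2 and PLK3 are fast-responding arrest genes. GADD45A is a stress sensor that acts on stress kinases and on CDK1. For GADD45A the replicates read 10.7 and 52.4 in the Hygro vector, 8.94 and 9.16 in the Puro vector and 81.7 and 55.2 in YAP 5SA (FPKM). With MRTFB forms, GADD45A was at 38.9 and 78.6 in MRTFB dN, 36.9 and 63.4 in MRTFB dN dPY, 18.7 and 10.9 in MRTFB dN Y305A, with 7.40 and 7.45 in MRTFB dN Y305A/dPY. The 2 Hygro vector replicates lay far apart, and their range overlapped with those of MRTFB dN, MRTFB dN dPY and MRTFB dN Y305A. GADD45A rose against the Puro vector in YAP 5SA (2.76 ± 0.61, adjusted p = 0.020), MRTFB dN (2.49 ± 0.61, adjusted p = 0.010) and MRTFB dN dPY (2.30 ± 0.61, adjusted p = 0.015). These calls were lost without either replicate of YAP 5SA or Puro vector replicate 1 (adjusted p 0.065 to 0.14) or with no filter on low values (adjusted p = 0.0782) for YAP 5SA, without MRTFB dN replicate 2 (adjusted p = 0.0723) for MRTFB dN and without Puro vector replicate 1 (adjusted p = 0.0615) or MRTFB dN dPY replicate 2 (adjusted p = 0.084) or with no filter on low values (adjusted p = 0.062) for MRTFB dN dPY. None of the 3 passed against the Hygro vector.

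BTG2 is an antiproliferative factor that brings messenger RNA to the deadenylases. BTG2 stood at 21.5 and 24.4 FPKM in replicates 1 and 2 of the Hygro vector, 11.7 and 7.53 in the Puro vector and 34.1 and 39.4 in YAP 5SA. BTG2 read 8.94 and 11.2 in MRTFB dN, 7.33 and 9.16 in MRTFB dN dPY, 10.2 and 7.88 in MRTFB dN Y305A, with 10.3 and 10.1 in MRTFB dN Y305A/dPY. YAP 5SA was above every other group, the Hygro vector came next, and the Puro vector overlapped with all 4 MRTFB forms. BTG2 rose in YAP 5SA against the Puro vector (1.85 ± 0.26, adjusted p = 0.0020) and fell in MRTFB dN dPY against the Hygro vector (-1.38 ± 0.26, adjusted p = 0.0033), and both calls held in all 20 refits. It also fell in MRTFB dN Y305A against the Hygro vector (-1.26 ± 0.26, adjusted p = 0.028), a call lost in 7 of the 20 refits. The fall in MRTFB dN against the Hygro vector (-1.12 ± 0.26, adjusted p = 0.011) was lost without Hygro vector replicate 2 (adjusted p = 0.0591) or MRTFB dN replicate 1 (adjusted p = 0.0904).

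PLK2 is a polo-like kinase of the centriole cycle. In FPKM, PLK2 read 32.9 and 47.6 under the Hygro vector, 9.12 and 8.10 under the Puro vector and 81.99 and 86.3 under YAP 5SA. With MRTFB forms, PLK2 was at 71.9 and 54.98 in MRTFB dN, 45.1 and 38.8 in MRTFB dN dPY, 71.03 and 33.5 in MRTFB dN Y305A, with 9.31 and 8.74 in MRTFB dN Y305A/dPY. The 2 Puro vector libraries and the 2 libraries of MRTFB dN Y305A/dPY were at 8.10 to 9.31 FPKM, below the other 10. Against the Puro vector PLK2 rose by 3.15 ± 0.34, adjusted p = 0.00052 in YAP 5SA, 2.73 ± 0.34, adjusted p = 0.00021 in MRTFB dN, 2.16 ± 0.34, adjusted p = 0.00095 in MRTFB dN dPY and 2.38 ± 0.34, adjusted p = 0.0029 in MRTFB dN Y305A. All 4 calls held in all 20 refits. It was 0.06 ± 0.34 in MRTFB dN Y305A/dPY (adjusted p = 0.91), which did not pass. That form was lower than the Hygro vector (-2.02 ± 0.34, adjusted p = 0.014). The call was lost without Hygro vector replicate 2 or either replicate of MRTFB dN Y305A/dPY (adjusted p 0.0684 to 0.0958) or with no filter on low values (adjusted p = 0.0532). The Puro vector was itself lower than the Hygro vector (-2.08 ± 0.34, adjusted p = 0.0087).

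PLK3, a stress-responsive polo-like kinase, was among the clearest members of the set. For PLK3 the replicates read 9.33 and 14.2 in the Hygro vector, 7.75 and 8.62 in the Puro vector and 10.2 and 6.58 in YAP 5SA (FPKM). PLK3 read 1.24 and 2.17 in MRTFB dN, 1.13 and 1.99 in MRTFB dN dPY, 13.7 and 17.2 in MRTFB dN Y305A, with 15.2 and 19.1 in MRTFB dN Y305A/dPY. MRTFB dN and MRTFB dN dPY together read 1.13 to 2.17 FPKM and the other 10 read 6.58 to 19.1. PLK3 fell against both vectors, in MRTFB dN with log2 differences of -1.78 ± 0.31, adjusted p = 0.0017 for Puro and -2.23 ± 0.31, adjusted p = 0.00049 for Hygro, and in MRTFB dN dPY of -1.86 ± 0.31, adjusted p = 0.0013 and -2.31 ± 0.31, adjusted p = 0.00040. These 4 calls held in all 20 refits. In MRTFB dN Y305A/dPY PLK3 was above the Puro vector (0.98 ± 0.31, adjusted p = 0.040), a call lost in 8 of the 20 refits.

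Of the feedback genes, MDM2 encodes the ubiquitin ligase that removes p53. MDM2 stood at 30.99 and 17.1 FPKM in replicates 1 and 2 of the Hygro vector, 59.9 and 29.6 in the Puro vector and 21 and 27.5 in YAP 5SA. With MRTFB forms, MDM2 was at 7.42 and 11.8 in MRTFB dN, 6.56 and 11.4 in MRTFB dN dPY, 9.57 and 10.6 in MRTFB dN Y305A, with 9.67 and 12.6 in MRTFB dN Y305A/dPY. All 8 MRTFB libraries lay below the 6 libraries of the vectors and YAP 5SA, and the replicates of both vectors differed widely. MDM2 fell against the Puro vector in MRTFB dN (-2.06 ± 0.41, adjusted p = 0.0035) and in MRTFB dN dPY (-2.15 ± 0.41, adjusted p = 0.0027), and both calls held in all 20 refits. It also fell against the Puro vector in MRTFB dN Y305A (-1.965 ± 0.41, adjusted p = 0.0097) and MRTFB dN Y305A/dPY (-1.84 ± 0.41, adjusted p = 0.011). Each of these calls was lost without Puro vector replicate 1 or replicate 1 of the construct. Against the Hygro vector MRTFB dN gave -1.21 ± 0.41, adjusted p = 0.061, which did not pass, and MRTFB dN dPY -1.31 ± 0.41, adjusted p = 0.043. That last call was lost without Hygro vector replicate 1, either replicate of YAP 5SA, either replicate of MRTFB dN, either replicate of MRTFB dN dPY, either replicate of MRTFB dN Y305A or either replicate of MRTFB dN Y305A/dPY (adjusted p 0.0503 to 0.259) or with no filter on low values (adjusted p = 0.127) or scaled by the median of ratios (adjusted p = 0.0511) or with the zeros of MRTFB dN dPY replicate 1 kept as values (adjusted p = 0.0601). A second locus named MDM2 read 16.0 and 3.08 FPKM in the Puro vector and at most 0.767 in every other library, so the locus used does not hold all of the signal named MDM2 in the Puro vector. PPM1D ranged between 1.32 and 3.77 FPKM and CCNG1 between 34.5 and 82.1.

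Of the 13 genes of cell death, 3 were higher and 2 lower in MRTFB dN against the Puro vector (median log2 difference 0.03, background 21.8% and 15%), and 1 was higher and 1 lower against the Hygro vector (median -0.36, background 12% and 7.09%). For MRTFB dN dPY the medians were 0.05 and -0.61. In the Puro vector against the Hygro vector 0 were higher and 4 lower (median -0.67, background 5.68% and 8.54%). YAP 5SA had 4 higher and 0 lower than the Puro vector (median 0.49, background 5.56% and 4.25%). PMAIP1 and BBC3, which encode the BH3-only proteins NOXA and PUMA that release the pore formers BAX and BAK, went opposite ways in MRTFB dN and MRTFB dN dPY. In FPKM, PMAIP1 read 7.79 and 4.43 under the Hygro vector, 2.26 and 4.79 under the Puro vector and 3.09 and 3.85 under YAP 5SA. PMAIP1 read 21.7 and 17.8 in MRTFB dN, 30.9 and 19.03 in MRTFB dN dPY, 24.5 and 17.4 in MRTFB dN Y305A, with 12.7 and 14.5 in MRTFB dN Y305A/dPY. All 8 MRTFB libraries were above the 6 others. PMAIP1 rose against the Puro and the Hygro vector in MRTFB dN (2.25 ± 0.36, adjusted p = 0.0010; 1.58 ± 0.36, adjusted p = 0.010) and in MRTFB dN dPY (2.54 ± 0.36, adjusted p = 0.00049; 1.87 ± 0.36, adjusted p = 0.0038). The call of MRTFB dN against the Hygro vector was lost without Hygro vector replicate 2 (adjusted p = 0.0782) or MRTFB dN replicate 1 (adjusted p = 0.0805). PMAIP1 also rose in MRTFB dN Y305A against the Puro vector (2.32 ± 0.36, adjusted p = 0.0039), a call lost without MRTFB dN Y305A replicate 1 (adjusted p = 0.0569). It rose there against the Hygro vector too (1.65 ± 0.36, adjusted p = 0.037). This call was lost without either replicate of the Hygro vector, either replicate of YAP 5SA, either replicate of MRTFB dN, either replicate of MRTFB dN Y305A or either replicate of MRTFB dN Y305A/dPY (adjusted p 0.0516 to 0.248) or with no filter on low values (adjusted p = 0.128) or with the zeros of MRTFB dN dPY replicate 1 kept as values (adjusted p = 0.0595). In MRTFB dN Y305A/dPY it rose against the Puro vector (1.75 ± 0.36, adjusted p = 0.0084), a call lost without Puro vector replicate 1 (adjusted p = 0.0528) or MRTFB dN Y305A/dPY replicate 1 (adjusted p = 0.0557).

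For BBC3 the replicates read 5.63 and 8.10 in the Hygro vector, 6.09 and 7.98 in the Puro vector and 7.69 and 5.88 in YAP 5SA (FPKM). With MRTFB forms, BBC3 was at 0.870 and 3.15 in MRTFB dN, 0.871 and 1.12 in MRTFB dN dPY, 10.7 and 8.78 in MRTFB dN Y305A, with 7.44 and 10.1 in MRTFB dN Y305A/dPY. The 4 libraries of MRTFB dN and MRTFB dN dPY read 0.870 to 3.15 FPKM and the other 10 read 5.63 to 10.7. BBC3 fell against the Puro and the Hygro vector in MRTFB dN (-1.52 ± 0.35, adjusted p = 0.0080; -1.48 ± 0.35, adjusted p = 0.014) and in MRTFB dN dPY (-2.001 ± 0.35, adjusted p = 0.0020; -1.96 ± 0.35, adjusted p = 0.0028). The MRTFB dN call was lost for Puro without MRTFB dN replicate 1 (adjusted p = 0.0805), and for Hygro without Hygro vector replicate 2 (adjusted p = 0.0905) or MRTFB dN replicate 1 (adjusted p = 0.127) or with no filter on low values (adjusted p = 0.0518). BAX itself was at 34.4 to 145 FPKM and passed in no comparison.

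FAS, a death receptor, passed in 2 comparisons. FAS stood at 27.4 and 30.01 FPKM in replicates 1 and 2 of the Hygro vector, 30.2 and 36.8 in the Puro vector and 28.1 and 29.9 in YAP 5SA. FAS read 22.7 and 30.5 in MRTFB dN, 15.1 and 19.8 in MRTFB dN dPY, 53.97 and 35.2 in MRTFB dN Y305A, with 46.2 and 42.3 in MRTFB dN Y305A/dPY. MRTFB dN dPY was the lowest group and did not overlap with any other. FAS fell in it against the Puro vector (-0.91 ± 0.27, adjusted p = 0.025), a call lost without Puro vector replicate 2 (adjusted p = 0.0863) or MRTFB dN dPY replicate 1 (adjusted p = 0.163). The other death receptor, TNFRSF10B, read 71.6 to 198 FPKM and passed nowhere.

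AEN, a nuclease that enhances apoptosis, was lowest in the Puro vector. In FPKM, AEN read 11.9 and 19.5 under the Hygro vector, 7.24 and 4.86 under the Puro vector and 21.5 and 17.5 under YAP 5SA. With MRTFB forms, AEN was at 14 and 12.9 in MRTFB dN, 11.3 and 11.3 in MRTFB dN dPY, 13.3 and 13.6 in MRTFB dN Y305A, with 10.8 and 11.3 in MRTFB dN Y305A/dPY. The 2 Puro vector libraries lay below the other 12. AEN rose against them in MRTFB dN dPY (0.82 ± 0.26, adjusted p = 0.034), MRTFB dN Y305A (1.06 ± 0.26, adjusted p = 0.019) and MRTFB dN Y305A/dPY (0.79 ± 0.26, adjusted p = 0.048). In that order, the calls were lost in 3, 3 and 15 of the 20 refits. AEN also rose against the Puro vector in YAP 5SA (1.55 ± 0.26, adjusted p = 0.0059) and in MRTFB dN (1.05 ± 0.26, adjusted p = 0.011). The first of these was lost without YAP 5SA replicate 1 (adjusted p = 0.0672), the second without Puro vector replicate 2 (adjusted p = 0.0532) or MRTFB dN replicate 1 (adjusted p = 0.0746). The Puro vector was below the Hygro vector (-1.23 ± 0.26, adjusted p = 0.018), a call lost without Hygro vector replicate 2 (adjusted p = 0.102).

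TP53I3, a quinone oxidoreductase read together with SF3B6, ran high in the Hygro vector and YAP 5SA. For TP53I3 the replicates read 404 and 285 in the Hygro vector, 118 and 152 in the Puro vector and 325 and 336 in YAP 5SA (FPKM). TP53I3 read 198 and 135 in MRTFB dN, 211 and 149 in MRTFB dN dPY, 231 and 176 in MRTFB dN Y305A, with 213 and 173 in MRTFB dN Y305A/dPY. The Puro vector overlapped with MRTFB dN and MRTFB dN dPY. TP53I3 passed in YAP 5SA against the Puro vector (1.30 ± 0.34, adjusted p = 0.040) and between the vectors (-1.34 ± 0.34, adjusted p = 0.029), calls lost without either replicate of YAP 5SA, Puro vector replicate 1, either replicate of MRTFB dN dPY, either replicate of MRTFB dN Y305A or either replicate of MRTFB dN Y305A/dPY (adjusted p 0.0509 to 0.2) or with no filter on low values (adjusted p = 0.052) or with the zeros of MRTFB dN dPY replicate 1 kept as values (adjusted p = 0.0548) for the first and without either replicate of the Hygro vector, either replicate of YAP 5SA or Puro vector replicate 1 (adjusted p 0.0511 to 0.104) for the second.

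PHLDA3 encodes a small protein that keeps AKT from the membrane. PHLDA3 stood at 46.3 and 74.8 FPKM in replicates 1 and 2 of the Hygro vector, 23.04 and 22.6 in the Puro vector and 87.4 and 49.4 in YAP 5SA. With MRTFB forms, PHLDA3 was at 68.6 and 48.6 in MRTFB dN, 55.1 and 38 in MRTFB dN dPY, 64.1 and 38.7 in MRTFB dN Y305A, with 48.3 and 40.9 in MRTFB dN Y305A/dPY. The 2 Puro vector libraries lay below the other 12. PHLDA3 rose against them in MRTFB dN (1.30 ± 0.38, adjusted p = 0.021), a call lost without either replicate of the Puro vector or MRTFB dN replicate 1 (adjusted p 0.0575 to 0.151) or with no filter on low values (adjusted p = 0.0569). TRIAP1, a mitochondrial lipid chaperone that restrains apoptosis, was low in the same libraries. In FPKM, TRIAP1 read 19.1 and 37.6 under the Hygro vector, 11.7 and 12.6 under the Puro vector and 23.7 and 35.8 under YAP 5SA. TRIAP1 read 18.9 and 20.3 in MRTFB dN, 16.2 and 18.3 in MRTFB dN dPY, 20.01 and 15.7 in MRTFB dN Y305A, with 15.1 and 11.95 in MRTFB dN Y305A/dPY. Here the Puro vector overlapped with MRTFB dN Y305A/dPY, and the difference between the vectors (-1.08 ± 0.32, adjusted p = 0.048) was lost without Hygro vector replicate 2, either replicate of YAP 5SA, either replicate of the Puro vector, either replicate of MRTFB dN, either replicate of MRTFB dN dPY, either replicate of MRTFB dN Y305A or either replicate of MRTFB dN Y305A/dPY (adjusted p 0.0577 to 0.283) or with a pseudocount of 0.1 (adjusted p = 0.0501) or with no filter on low values (adjusted p = 0.101) or scaled by the median of ratios (adjusted p = 0.0521) or with the zeros of MRTFB dN dPY replicate 1 kept as values (adjusted p = 0.0683).

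SPATA18, a factor of mitochondrial quality control, was highest in Puro vector replicate 1, the library that stood apart. For SPATA18 the replicates read 6.24 and 3.40 in the Hygro vector, 14.5 and 5.27 in the Puro vector and 7.11 and 9.53 in YAP 5SA (FPKM). With MRTFB forms, SPATA18 was at 1.92 and 2.95 in MRTFB dN, 1.47 and 2.26 in MRTFB dN dPY, 1.71 and 2.91 in MRTFB dN Y305A, with 1.38 and 2.78 in MRTFB dN Y305A/dPY. The 8 MRTFB libraries lay below the 6 others. SPATA18 fell against the Puro vector in MRTFB dN (-1.54 ± 0.44, adjusted p = 0.020) and MRTFB dN dPY (-1.79 ± 0.44, adjusted p = 0.0098). Of these calls, the first was lost without Puro vector replicate 1 (adjusted p = 0.15) or MRTFB dN replicate 1 (adjusted p = 0.136) or with no filter on low values (adjusted p = 0.0701), the second without Puro vector replicate 1 (adjusted p = 0.0735) or MRTFB dN dPY replicate 1 (adjusted p = 0.0719). Neither passed against the Hygro vector (-0.73 ± 0.44, adjusted p = 0.29; -0.99 ± 0.44, adjusted p = 0.14). SPATA18 also fell against the Puro vector in MRTFB dN Y305A (-1.60 ± 0.44, adjusted p = 0.025) and MRTFB dN Y305A/dPY (-1.71 ± 0.44, adjusted p = 0.019). Both of these calls were lost without Puro vector replicate 1, without replicate 1 of the construct or with no filter on low values. Of the rest, TP53INP1 ranged from 1.64 to 10.6 FPKM, EDA2R from 1.51 to 8.87 and ZMAT3, a regulator of splicing, from 2.33 to 11.7.

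Among the repair genes, DDB2 and XPC recognise lesions in nucleotide excision repair. DDB2 stood at 16.5 and 22.4 FPKM in replicates 1 and 2 of the Hygro vector, 21.5 and 22.1 in the Puro vector and 22.8 and 25.6 in YAP 5SA. DDB2 read 7.80 and 10.3 in MRTFB dN, 4.50 and 6.98 in MRTFB dN dPY, 18.6 and 22.8 in MRTFB dN Y305A, with 13.7 and 17.6 in MRTFB dN Y305A/dPY. MRTFB dN and MRTFB dN dPY together read 4.50 to 10.3 FPKM and the other 10 read 13.7 to 25.6. DDB2 fell against the Puro and the Hygro vector in MRTFB dN (-1.20 ± 0.27, adjusted p = 0.0067; -1.02 ± 0.27, adjusted p = 0.022) and in MRTFB dN dPY (-1.78 ± 0.27, adjusted p = 0.00078; -1.61 ± 0.27, adjusted p = 0.0017). The dPY calls held in all 20 refits, and the MRTFB dN call was lost for Puro without MRTFB dN replicate 1 (adjusted p = 0.0661) and for Hygro without Hygro vector replicate 2 (adjusted p = 0.129) or MRTFB dN replicate 1 (adjusted p = 0.155).

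In FPKM, XPC read 13.7 and 12.2 under the Hygro vector, 10.9 and 8.49 under the Puro vector and 15.7 and 14.99 under YAP 5SA. With MRTFB forms, XPC was at 5.89 and 7.47 in MRTFB dN, 4.85 and 7.56 in MRTFB dN dPY, 9.81 and 10.3 in MRTFB dN Y305A, with 10.7 and 11.8 in MRTFB dN Y305A/dPY. The 4 libraries of MRTFB dN and MRTFB dN dPY, at 4.85 to 7.56 FPKM, lay below the other 10. XPC fell against the Hygro vector in MRTFB dN (-0.87 ± 0.24, adjusted p = 0.029) and in MRTFB dN dPY (-0.98 ± 0.24, adjusted p = 0.016). The first call was lost without either replicate of the Hygro vector or either replicate of MRTFB dN (adjusted p 0.061 to 0.181), the second without Hygro vector replicate 1 (adjusted p = 0.0696) or MRTFB dN dPY replicate 1 (adjusted p = 0.14). Against the Puro vector the MRTFB dN difference was -0.48 ± 0.24, adjusted p = 0.14, which did not pass. RRM2B, a p53-driven subunit of ribonucleotide reductase, has a value in 13 libraries. For RRM2B the replicates read 15.1 and 6.76 in the Hygro vector, 7.45 and 5.42 in the Puro vector and 12.96 and 22.7 in YAP 5SA (FPKM). RRM2B read 7.001 and 9.48 in MRTFB dN, 8.88 in the 1 library of MRTFB dN dPY with a value, 16.6 and 11.5 in MRTFB dN Y305A, with 19.8 and 15.97 in MRTFB dN Y305A/dPY. Its lowest libraries were those of the Puro vector, one of the Hygro vector and one of MRTFB dN. It passed only in MRTFB dN Y305A/dPY against the Puro vector (1.35 ± 0.40, adjusted p = 0.033), a call lost without either replicate of the Puro vector or either replicate of MRTFB dN Y305A/dPY (adjusted p 0.0584 to 0.184) or with no filter on low values (adjusted p = 0.0993) or with the zeros of MRTFB dN dPY replicate 1 kept as values (adjusted p = 0.287). POLH, a translesion polymerase, ranged from 3.36 to 7.94 FPKM.

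Of the metabolic genes, FDXR encodes ferredoxin reductase, which passes electrons to ferredoxins in mitochondria. FDXR stood at 14.5 and 20.6 FPKM in replicates 1 and 2 of the Hygro vector, 9.18 and 7.57 in the Puro vector and 14.5 and 13.4 in YAP 5SA. With MRTFB forms, FDXR was at 3.85 and 3.59 in MRTFB dN, 2.04 and 2.64 in MRTFB dN dPY, 9.53 and 9.07 in MRTFB dN Y305A, with 6.92 and 7.35 in MRTFB dN Y305A/dPY. MRTFB dN and MRTFB dN dPY together read 2.04 to 3.85 FPKM and the other 10 read 6.92 to 20.6. FDXR fell against the Puro and the Hygro vector in MRTFB dN (-0.98 ± 0.23, adjusted p = 0.0073; -1.95 ± 0.23, adjusted p = 0.00015) and in MRTFB dN dPY (-1.49 ± 0.23, adjusted p = 0.00080; -2.46 ± 0.23, adjusted p = 2.9e-05). All 4 calls held in all 20 refits. MRTFB dN Y305A/dPY was also below the Hygro vector (-1.17 ± 0.23, adjusted p = 0.024), a call lost without Hygro vector replicate 2, either replicate of YAP 5SA or either replicate of MRTFB dN Y305A/dPY (adjusted p 0.0518 to 0.159).

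SESN1 and SESN2 are sestrins, which restrain the growth kinase mTORC1. In FPKM, SESN1 read 7.82 and 7.05 under the Hygro vector, 9.61 and 8.92 under the Puro vector and 9.89 and 13.4 under YAP 5SA. SESN1 read 9.72 and 9.72 in MRTFB dN, 8.56 and 8.86 in MRTFB dN dPY, 3.996 and 3.75 in MRTFB dN Y305A, with 4.41 and 4.26 in MRTFB dN Y305A/dPY. The 4 libraries of the Y305A forms read 3.75 to 4.41 FPKM, below the other 10, and the vectors, MRTFB dN and MRTFB dN dPY lay close together. Against the Hygro vector SESN1 passed in neither Y305A form. SESN1 was below the Puro vector in MRTFB dN Y305A (-1.07 ± 0.20, adjusted p = 0.0076) and in MRTFB dN Y305A/dPY (-0.94 ± 0.20, adjusted p = 0.010). The former was lost without MRTFB dN Y305A replicate 1 (adjusted p = 0.0714), the second without MRTFB dN Y305A/dPY replicate 1 (adjusted p = 0.0737).

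For SESN2 the replicates read 8.81 and 10.4 in the Hygro vector, 12.5 and 8.58 in the Puro vector and 5.17 and 4.04 in YAP 5SA (FPKM). With MRTFB forms, SESN2 was at 13.3 and 11.7 in MRTFB dN, 9.67 and 8.44 in MRTFB dN dPY, 18.6 and 13.8 in MRTFB dN Y305A, with 19.4 and 16.5 in MRTFB dN Y305A/dPY. YAP 5SA was the lowest group and did not overlap with any other, and the Y305A forms were the highest. SESN2 was the only one of the 34 genes that passed in YAP 5SA against the Hygro vector (-0.92 ± 0.25, adjusted p = 0.048). That call was lost without either replicate of the Hygro vector, either replicate of YAP 5SA, either replicate of MRTFB dN, either replicate of MRTFB dN dPY, either replicate of MRTFB dN Y305A or either replicate of MRTFB dN Y305A/dPY (adjusted p 0.0568 to 0.326) or with no filter on low values (adjusted p = 0.0695) or scaled by the median of ratios (adjusted p = 0.05) or with the zeros of MRTFB dN dPY replicate 1 kept as values (adjusted p = 0.068). Against the Puro vector the difference was -1.03 ± 0.25, adjusted p = 0.031, a call lost without either replicate of YAP 5SA or Puro vector replicate 1 (adjusted p 0.101 to 0.218).

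TIGAR encodes a phosphatase that lowers the flux through glycolysis. TIGAR stood at 5.60 and 5.71 FPKM in replicates 1 and 2 of the Hygro vector, 3.52 and 1.82 in the Puro vector and 4.06 and 6.13 in YAP 5SA. TIGAR read 5.78 and 5.69 in MRTFB dN, 5.61 and 5.91 in MRTFB dN dPY, 4.98 and 3.47 in MRTFB dN Y305A, with 5.16 and 3.83 in MRTFB dN Y305A/dPY. The 2 Puro vector libraries differed from each other, and 1 of them was lower than all others. TIGAR rose against the Puro vector in MRTFB dN (0.91 ± 0.28, adjusted p = 0.027) and MRTFB dN dPY (0.92 ± 0.28, adjusted p = 0.027). The first of these was lost without Puro vector replicate 2 or either replicate of MRTFB dN (adjusted p 0.084 to 0.143) or with no filter on low values (adjusted p = 0.0555), the second without Puro vector replicate 2 or either replicate of MRTFB dN dPY (adjusted p 0.0939 to 0.143) or with no filter on low values (adjusted p = 0.0545). With the Hygro vector as control the values were 0.02 ± 0.28, adjusted p = 0.98 and 0.02 ± 0.28, adjusted p = 0.97, and neither passed.

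GDF15, a secreted hormone of the TGF-beta superfamily that marks cell stress, had the largest fitted difference of the set. In FPKM, GDF15 read 30.5 and 14.2 under the Hygro vector, 74.9 and 139 under the Puro vector and 17.9 and 11.3 under YAP 5SA. With MRTFB forms, GDF15 was at 2.81 and 3.51 in MRTFB dN, 1.69 and 0.997 in MRTFB dN dPY, 25.3 and 39.4 in MRTFB dN Y305A, with 7.49 and 18.3 in MRTFB dN Y305A/dPY. The 4 libraries of MRTFB dN and MRTFB dN dPY, at 0.997 to 3.51 FPKM, lay below the other 10, and the 2 Puro vector libraries lay above the other 12. GDF15 fell against the Puro and the Hygro vector in MRTFB dN (-4.63 ± 0.48, adjusted p = 6.8e-05; -2.40 ± 0.48, adjusted p = 0.0054) and in MRTFB dN dPY (-5.47 ± 0.48, adjusted p = 2.1e-05; -3.24 ± 0.48, adjusted p = 0.00087), and all 4 calls held in all 20 refits. Against the Puro vector it was also lower in MRTFB dN Y305A (-1.66 ± 0.48, adjusted p = 0.031), a call lost in 4 of the 20 refits. The difference of MRTFB dN Y305A/dPY from the Puro vector was -3.01 ± 0.48, adjusted p = 0.00385, a call that held in all 20 refits. YAP 5SA was below the Puro vector (-2.76 ± 0.48, adjusted p = 0.0066), a call lost without YAP 5SA replicate 2 (adjusted p = 0.0768), and differed from the Hygro vector by -0.52 ± 0.48, adjusted p = 0.58, which did not pass.

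SERPINB5 encodes maspin, a serpin of mammary epithelium. For SERPINB5 the replicates read 191 and 387 in the Hygro vector, 56.2 and 56.4 in the Puro vector and 93.8 and 124 in YAP 5SA (FPKM). SERPINB5 read 451 and 314 in MRTFB dN, 485 and 339.8 in MRTFB dN dPY, 153 and 73.2 in MRTFB dN Y305A, with 153 and 72.9 in MRTFB dN Y305A/dPY. MRTFB dN and MRTFB dN dPY overlapped with the Hygro vector and lay above every other group. SERPINB5 rose against the Puro vector in MRTFB dN (2.72 ± 0.49, adjusted p = 0.0021) and in MRTFB dN dPY (2.83 ± 0.49, adjusted p = 0.0017), and both calls held in all 20 refits. Against the Hygro vector it did not pass (0.47 ± 0.49, adjusted p = 0.57; 0.58 ± 0.49, adjusted p = 0.46). The Puro vector was below the Hygro vector (-2.25 ± 0.49, adjusted p = 0.019), a call lost without Hygro vector replicate 2 (adjusted p = 0.107) or Puro vector replicate 1 (adjusted p = 0.0587) or with no filter on low values (adjusted p = 0.0558).

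Loss of SRF binding was measured in 2 comparisons that share no library: MRTFB dN Y305A against MRTFB dN, and MRTFB dN Y305A/dPY against MRTFB dN dPY. In the first, 6 of the 34 genes were higher and 3 lower, where 6.12% of all loci were higher and 10.6% lower. In the second, 9 were higher and 5 lower (background 6.74% and 10.7%). Each of the 9 genes called in the first was called in the second with the same sign, which is 100% of the first list and 64.3% of the second. Higher in the forms without SRF binding were SFN, PLK3, BBC3, DDB2, FDXR and GDF15, and lower were CDKN1A, SESN1 and SERPINB5. Over the 34 genes Pearson's r between the 2 sets of log2 differences was 0.94, a description over genes that share their libraries, and 30 of 34 had the same sign. The overlap, r and equal signs were not computed over all loci. Whether they are particular to these genes was therefore not tested. Both comparisons take their SE from 1 fit, and the replicate differences of the MRTFB groups were correlated (r from 0.31 to 0.64). The second count was 7 without MRTFB dN dPY replicate 1 or MRTFB dN Y305A/dPY replicate 2 and 9 without MRTFB dN dPY replicate 2 or MRTFB dN Y305A/dPY replicate 1, in place of 14.

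**Figure D4:**
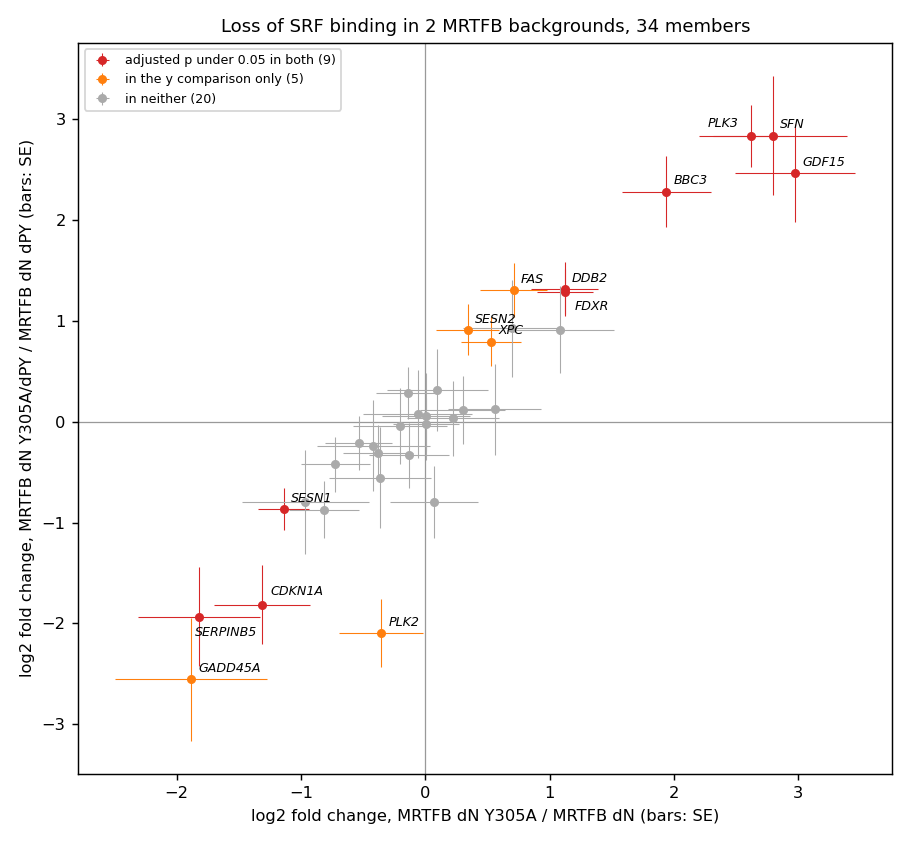
Log2 difference with loss of SRF binding in the form that can bind YAP (x axis) and in the form that cannot (y axis) for 34 genes, with bars of 1 SE. The 9 genes called in both (red) lie at the upper right (PLK3, SFN, GDF15, BBC3, DDB2, FDXR) or the lower left (SESN1, CDKN1A, SERPINB5), and PLK2 lies off the diagonal.

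GDF15 was higher without SRF binding by 2.98 ± 0.48, adjusted p = 0.0015 in the first comparison and 2.47 ± 0.48, adjusted p = 0.0050 in the second. PLK3 differed by 2.62 ± 0.31, adjusted p = 0.00017 and 2.84 ± 0.31, adjusted p = 9.9e-05, BBC3 by 1.94 ± 0.35, adjusted p = 0.0033 and 2.28 ± 0.35, adjusted p = 0.0012, and FDXR by 1.12 ± 0.23, adjusted p = 0.0057 and 1.29 ± 0.23, adjusted p = 0.0025. The calls on these 4 genes held in all 20 refits in both comparisons. SFN was higher by 2.79 ± 0.59, adjusted p = 0.0079 and 2.84 ± 0.59, adjusted p = 0.0072, calls lost without MRTFB dN replicate 2 (adjusted p = 0.0718) or MRTFB dN Y305A replicate 1 (adjusted p = 0.0732) in the first and without MRTFB dN dPY replicate 2 (adjusted p = 0.062) or MRTFB dN Y305A/dPY replicate 1 (adjusted p = 0.0658) in the second. DDB2 was higher by 1.12 ± 0.27, adjusted p = 0.015 and 1.32 ± 0.27, adjusted p = 0.0063, calls lost without MRTFB dN replicate 1 (adjusted p = 0.119) or MRTFB dN Y305A replicate 2 (adjusted p = 0.111) in the first and without MRTFB dN dPY replicate 1 (adjusted p = 0.0656) or MRTFB dN Y305A/dPY replicate 2 (adjusted p = 0.0564) in the second.

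CDKN1A was lower without SRF binding, with log2 differences of -1.31 ± 0.39, adjusted p = 0.041 and -1.81 ± 0.39, adjusted p = 0.0082. Of these calls, the first was lost without either replicate of YAP 5SA, either replicate of MRTFB dN, MRTFB dN Y305A replicate 2 or either replicate of MRTFB dN Y305A/dPY (adjusted p 0.0544 to 0.297) or with no filter on low values (adjusted p = 0.0713) or with the zeros of MRTFB dN dPY replicate 1 kept as values (adjusted p = 0.0563), the second without MRTFB dN dPY replicate 1 (adjusted p = 0.0777) or MRTFB dN Y305A/dPY replicate 2 (adjusted p = 0.0694). SESN1 was also lower, with -1.14 ± 0.20, adjusted p = 0.0030, which held in all 20 refits, and -0.86 ± 0.20, adjusted p = 0.014, lost without either replicate of MRTFB dN dPY or either replicate of MRTFB dN Y305A/dPY (adjusted p 0.061 to 0.0817). SERPINB5 was lower too, with -1.82 ± 0.49, adjusted p = 0.026 and -1.93 ± 0.49, adjusted p = 0.020, calls lost without either replicate of MRTFB dN or MRTFB dN Y305A replicate 2 (adjusted p 0.0678 to 0.212) or with no filter on low values (adjusted p = 0.0844) in the first and without either replicate of MRTFB dN dPY or MRTFB dN Y305A/dPY replicate 2 (adjusted p 0.0513 to 0.161) or with no filter on low values (adjusted p = 0.0671) in the second. A further 5 genes passed only in the form without YAP binding: GADD45A (-2.55 ± 0.61, adjusted p = 0.015) and PLK2 (-2.10 ± 0.34, adjusted p = 0.0015) were lower, and FAS (1.31 ± 0.27, adjusted p = 0.0070), XPC (0.80 ± 0.24, adjusted p = 0.044) and SESN2 (0.91 ± 0.25, adjusted p = 0.029) were higher. The PLK2 call held in all 20 refits. GADD45A was lost without MRTFB dN dPY replicate 2 or either replicate of MRTFB dN Y305A/dPY (adjusted p 0.0659 to 0.109) or with no filter on low values (adjusted p = 0.073), FAS without MRTFB dN dPY replicate 1 (adjusted p = 0.066), and SESN2 without either replicate of MRTFB dN dPY or either replicate of MRTFB dN Y305A/dPY (adjusted p 0.0721 to 0.153). XPC was lost without either replicate of the Hygro vector, either replicate of YAP 5SA, either replicate of MRTFB dN, MRTFB dN dPY replicate 1, either replicate of MRTFB dN Y305A or either replicate of MRTFB dN Y305A/dPY (adjusted p 0.0515 to 0.309) or scaled by the median of ratios (adjusted p = 0.0586) or with the zeros of MRTFB dN dPY replicate 1 kept as values (adjusted p = 0.0559). No gene of the 34 passed the test of the difference between the 2 comparisons.

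**Figure D5:**
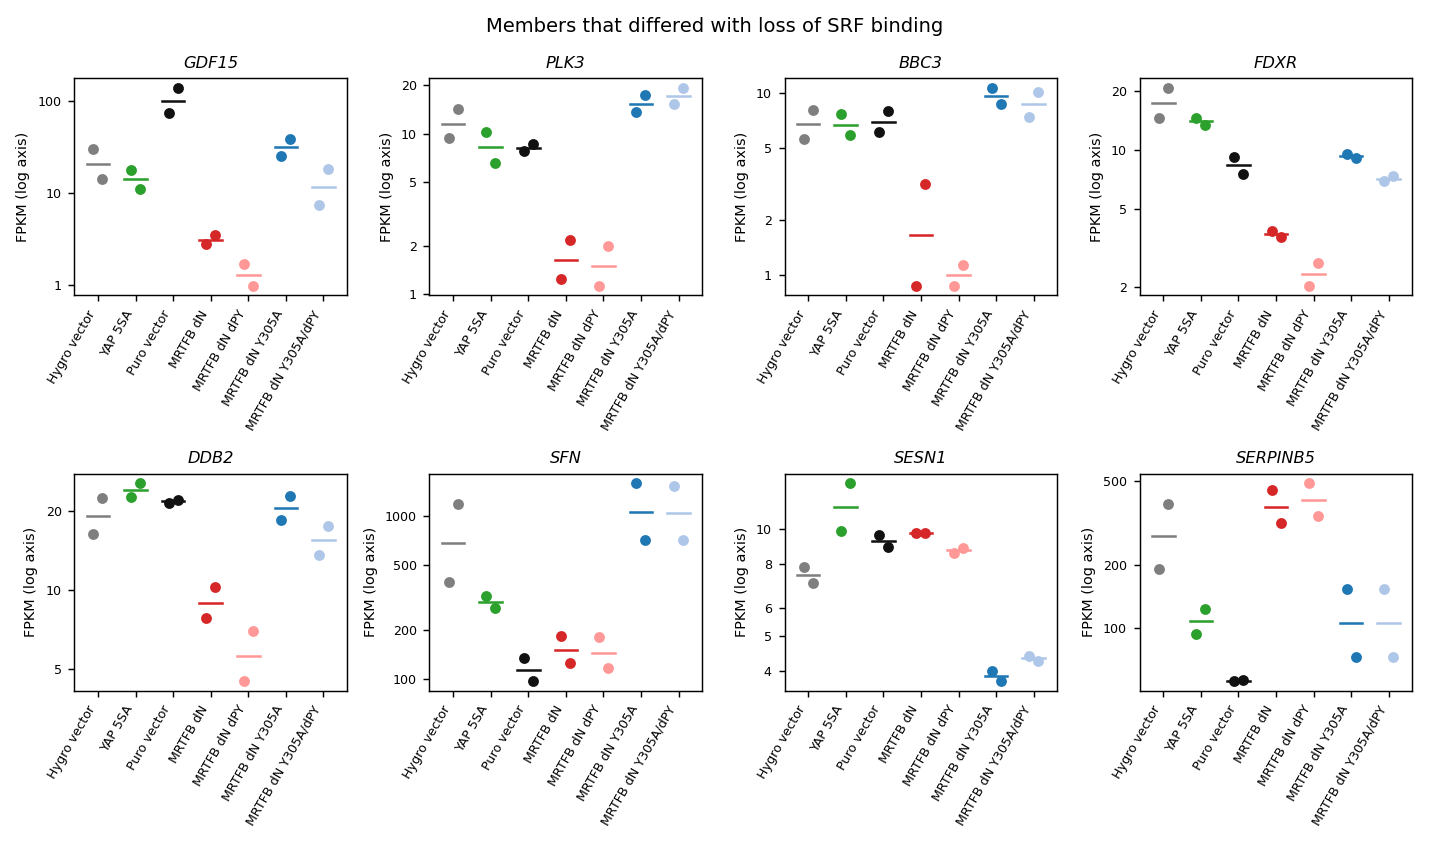
FPKM on log axes of 8 of the 9 genes that differed with loss of SRF binding, in the 2 libraries of each of 7 groups (points; the line is the geometric mean of the 2). GDF15, PLK3, BBC3, FDXR and DDB2 are lowest in the 4 libraries of MRTFB dN and MRTFB dN dPY, and SESN1 is lowest in the 4 libraries of the Y305A forms.

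The promoter windows of the genes were searched for the motifs of the factors at issue. RefSeq windows of 300 bases on GRCh38.p14, from 250 before to 50 after the start site, were at hand for 28 of the 34 genes, and not for CDKN1C, GADD45A, TNFRSF10B, TP53INP1, PHLDA3 and RRM2B. The p53 decamer (the single repeat of the p53 response element) was in 3 of 28 windows, those of PLK2, AEN and FDXR, which is 10.7% against 6.54% of all 27305 windows. No window held 2 decamers spaced by up to 13 bases, as did 0.0293% of all windows, and no window held the CArG box of SRF, as did 1.29%. The TEAD motif GGAATG was in 5 windows (PLK3, BBC3, TP53I3, SPATA18 and GDF15), 17.9% against 14%. Both strands were searched, and the motifs do not overlap in these windows. No mismatch was allowed, and sequence further upstream or further into the gene was not searched. A window without a motif therefore does not show that the gene lacks a site. Given in lower case, 5′ to 3′ on the strand of the gene, are the 3 windows with a p53 decamer (capitals), CDKN1A as the best known p53 target with none of the motifs, and GDF15 with the TEAD motif in capitals. They are PLK2 at chr5:58460037-58460336 (minus strand), AEN at chr15:88621090-88621389 (plus strand), FDXR at chr17:74872945-74873244 (minus strand), CDKN1A at chr6:36678464-36678763 (plus strand) and GDF15 at chr19:18385908-18386207 (plus strand).
PLK2: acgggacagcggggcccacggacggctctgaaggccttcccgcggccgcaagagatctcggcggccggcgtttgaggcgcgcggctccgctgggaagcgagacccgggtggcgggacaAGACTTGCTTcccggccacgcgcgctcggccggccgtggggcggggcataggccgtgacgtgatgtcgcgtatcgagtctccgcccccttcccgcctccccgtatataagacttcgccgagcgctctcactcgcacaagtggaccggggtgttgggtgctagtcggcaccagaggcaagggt
AEN: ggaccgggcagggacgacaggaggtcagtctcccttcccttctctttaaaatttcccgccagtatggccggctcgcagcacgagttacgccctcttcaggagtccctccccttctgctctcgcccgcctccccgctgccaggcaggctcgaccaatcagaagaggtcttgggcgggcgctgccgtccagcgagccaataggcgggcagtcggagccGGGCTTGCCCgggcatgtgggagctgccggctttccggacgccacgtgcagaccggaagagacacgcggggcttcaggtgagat
FDXR: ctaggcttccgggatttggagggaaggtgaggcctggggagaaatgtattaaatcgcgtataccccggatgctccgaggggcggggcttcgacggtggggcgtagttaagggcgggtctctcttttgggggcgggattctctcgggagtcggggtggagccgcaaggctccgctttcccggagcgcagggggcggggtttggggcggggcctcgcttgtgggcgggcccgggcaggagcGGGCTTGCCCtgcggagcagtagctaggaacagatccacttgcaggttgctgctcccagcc
CDKN1A: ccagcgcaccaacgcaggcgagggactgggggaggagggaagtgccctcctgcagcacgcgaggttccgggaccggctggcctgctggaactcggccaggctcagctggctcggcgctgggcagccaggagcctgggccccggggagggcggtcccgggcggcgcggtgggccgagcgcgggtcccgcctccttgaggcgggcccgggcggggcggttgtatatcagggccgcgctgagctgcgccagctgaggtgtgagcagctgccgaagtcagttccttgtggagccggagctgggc
GDF15: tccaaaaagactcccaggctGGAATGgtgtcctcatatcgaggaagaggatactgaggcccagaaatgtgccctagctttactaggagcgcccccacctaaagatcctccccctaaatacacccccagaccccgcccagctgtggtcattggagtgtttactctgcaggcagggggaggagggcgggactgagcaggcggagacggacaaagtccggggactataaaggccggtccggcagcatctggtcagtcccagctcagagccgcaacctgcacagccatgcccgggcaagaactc

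Of the 3 genes with a p53 decamer in the window, FDXR was lowest in the MRTFB forms that bind SRF, PLK2 was lowest in the Puro vector and MRTFB dN Y305A/dPY, and AEN was lowest in the Puro vector, so their levels across the 7 groups did not share 1 order. All 3 were called lower in the Puro than in the Hygro vector, as were 8.54% of all loci. A motif in a window of 300 bases is a description of its letters, and binding was not measured.

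Loss of YAP binding alone changed none of the 34 genes past the threshold in the fit without a replicate block. In MRTFB dN dPY against MRTFB dN, 0.236% of all loci passed, and in the pair of forms without SRF binding, 0.0152% did. At an unadjusted p under 0.05 there was 1 gene of the set in the first comparison and 2 in the second, where 3.33% and 2.06% of all loci were under it. The test of their difference had 1 such gene (background 1.93%), and 0.0228% of all loci passed it. The largest value was that of PLK2, which read 71.03 and 33.5 FPKM in MRTFB dN Y305A but 9.31 and 8.74 once YAP binding was lost too. The groups did not overlap, and the log2 difference was -2.32 ± 0.34, adjusted p = 0.13. The deletion in the SRF-binding form gave -0.58 ± 0.34, adjusted p = 1.0, and the difference between the 2 effects was -1.74 ± 0.48, adjusted p = 0.88. Without MRTFB dN Y305A replicate 2, 1 gene passed in the second comparison, PLK2. It also passed there with the replicate number as a block within the MRTFB groups, a setting added after seeing the data (adjusted p = 0.040), and not with a block over all groups (adjusted p = 0.17).

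YAP 5SA had 0 of the 34 genes higher and 1 lower than the Hygro vector, where 3.93% of all loci were higher and 4.33% lower, and 8 genes of the set (23.5%) had an unadjusted p under 0.05, against 23.4% of all loci. Against the Puro vector 8 were higher and 2 lower (background 5.56% and 4.25%), and that count was 3 without either YAP 5SA replicate. Higher were CDKN1A, GADD45A, BTG2, PLK2, AEN, TP53I3, PHLDA3 and TRIAP1, and lower were SESN2 and GDF15. Except GADD45A and SESN2, each of these genes also differed between the 2 vectors, and both of those comparisons use the Puro vector libraries. Of the 10 calls against the Puro vector, only those of BTG2 and PLK2 held in all 20 refits. The call of TRIAP1 was lost in 14 refits and that of PHLDA3 in 6. CDKN1A read 185 and 190.5 FPKM in YAP 5SA, between the Puro and the Hygro vector, and differed from the Puro vector by 1.83 ± 0.39, adjusted p = 0.017 (lost without YAP 5SA replicate 1 (adjusted p = 0.104) or YAP 5SA replicate 2 (adjusted p = 0.121)) and from the Hygro vector by -0.83 ± 0.39, adjusted p = 0.23, which did not pass.

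Of 18 tested regulators of p53, 3 were higher and 6 lower in MRTFB dN against the Puro vector, and 0 and 1 against the Hygro vector, beside 21.8% and 15%, and 12% and 7.09%, of all loci. TP63, the family member of basal epithelium, was the only one of them lower against the Hygro vector, and it was lower against the Puro vector too. It read 3.55 and 5.74 in the Hygro vector, 10.4 and 9.20 in the Puro vector, 1.02 and 1.08 in YAP 5SA, 1.93 and 1.84 in MRTFB dN, 4.39 and 3.78 in MRTFB dN dPY, 0.545 and 1.20 in MRTFB dN Y305A, with 0.687 and 1.22 in MRTFB dN Y305A/dPY. TP63 in MRTFB dN differed from the Puro vector by -1.90 ± 0.26, adjusted p = 0.00043 and from the Hygro vector by -0.94 ± 0.26, adjusted p = 0.028. YAP 5SA and both Y305A forms were lower still than MRTFB dN in FPKM. MDM4, which blocks the activation domain of p53, was lower than the Puro vector (-2.42 ± 0.47, adjusted p = 0.0031) and not called against the Hygro vector (-0.46 ± 0.47, adjusted p = 0.56), with 20.7 and 8.52 FPKM in the Puro and 3.76 and 1.84 in the Hygro vector. CDKN2A was listed at 0 in the 6 libraries of the vectors and YAP 5SA and at 1.43 or less in the MRTFB libraries with a value, and CDKN2B was at 0.0475 or less throughout.

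Another 46 targets of p53 were tested as a list. In MRTFB dN 11 were higher and 11 lower than the Puro vector, with a median log2 difference of 0.02 against 0.09 over all loci (background 21.8% and 15%), and 3 and 7 against the Hygro vector (median -0.09 against -0.02; background 12% and 7.09%). With loss of SRF binding 6 were higher and 5 lower in the form that binds YAP, and 9 and 7 in the form that does not (background 6.12% and 10.6%, 6.74% and 10.7%). KRT8, a keratin in that list, is listed at 0 in replicate 1 of MRTFB dN Y305A and of MRTFB dN Y305A/dPY and at 12554 and 9623 FPKM in replicate 2. It passed in none of the 16 comparisons, and none of the 34 genes is listed at 0 in a library with a value. CYFIP2, a member of the WAVE complex that drives actin assembly, read 38 and 36.9 FPKM in MRTFB dN against 3.23 and 3.94 in the Puro and 2.44 and 3.61 in the Hygro vector (3.07 ± 0.24, adjusted p = 9.2e-06; 3.27 ± 0.24, adjusted p = 6.6e-06). CD82, a tetraspanin, read 30.8 and 29.7 in MRTFB dN against 106 and 149 in the Puro and 346 and 223 in the Hygro vector (-2.02 ± 0.31, adjusted p = 0.00095; -3.16 ± 0.31, adjusted p = 5.2e-05).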

How the data were processed

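The 14 MCF-10A libraries were made from messenger RNA with a strand-marking kit and read from both ends, per the labels' protocols. The deposited table holds FPKM values of the authors for 34071 loci, and the submitters' processing notes name hg19, Bowtie, TopHat, Cufflinks and Cuffnorm; versions and annotation are not given in the sources used here. Of the loci, 27543 carry a gene name, and 13137 of these reached 1 FPKM in at least 2 libraries and were tested. The 34 genes, the lists beside them and the comparisons were chosen with earlier results of these data known. Values of MRTFB dN dPY replicate 1 on the empty stretch (chromosome 7 after PPIA, chromosomes 8, 9 and X) were treated as missing.

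Log2(FPKM + 1) was fitted with limma 3.58.1 in R 4.3.3 (1 coefficient per group, all 14 libraries, empirical Bayes with intensity trend, two-sided, 7 residual degrees of freedom or 6 for a locus missing in 1 library, prior 3.77), and p-values were adjusted over the 13137 loci within each comparison by the method of Benjamini and Hochberg, with a threshold of 0.05. The fit was tested on simulated data. Other steps used Python 3.11.15, pandas 2.3.3 and numpy 2.4.6. Every gene of the set that passed at least once at a mean of 3 FPKM or more, and the CIP/KIP inhibitors, are given with all values. The other genes of the set are given by range. Of the other lists, counts are given with values for TP63, MDM4, CDKN2A, CDKN2B, CDKN2C, CCND1, MKL2 and YAP1 and for up to 4 passing genes per list with the smallest adjusted p in MRTFB dN against the Puro vector, not all of which are printed, and 1 gene of that rule is not reported here. Alternatives were a pseudocount of 0.1, no filter on low values, scaling by the median of ratios, the replicate number as a block, the zeros of MRTFB dN dPY replicate 1 kept as values, and dropping single libraries one at a time, where the library that remains alone in its group is assumed to have the spread of the other groups. A block within the MRTFB groups was added after seeing the data. Promoter windows are from RefSeq on GRCh38.p14, and no coordinate of the authors' build was used.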

Additional observations from a re-analysis of the deposited data

How the results depend on the processing

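Of the 128 calls on the 34 genes, 45 held in all 20 refits and 83 were lost in at least 1, and none changed direction; the 20 refits include the block within the MRTFB groups, which was chosen after seeing the data. With 1 library left out at a time, the number of genes called ranged from 0 to 1 in YAP 5SA against Hygro vector, 3 to 11 in YAP 5SA against Puro vector, 9 to 16 in MRTFB dN against Puro vector, 4 to 14 in MRTFB dN against Hygro vector, 11 to 16 in MRTFB dN dPY against Puro vector, 8 to 13 in MRTFB dN dPY against Hygro vector, 1 to 11 in MRTFB dN Y305A against Puro vector, 1 to 3 in MRTFB dN Y305A against Hygro vector, 1 to 11 in MRTFB dN Y305A/dPY against Puro vector, 0 to 4 in MRTFB dN Y305A/dPY against Hygro vector, 2 to 11 in Puro vector against Hygro vector, 6 to 10 in MRTFB dN Y305A against MRTFB dN, 7 to 15 in MRTFB dN Y305A/dPY against MRTFB dN dPY and 0 to 1 in the PY deletion without SRF binding. It was 0 in each such refit for MRTFB dN dPY against MRTFB dN and for the difference between the 2 effects of the PY deletion. With no filter on low values, which tests more loci, the number was 0 for YAP 5SA against the Hygro vector (1 with the filter), 6 against the Puro vector (10), 1 for MRTFB dN Y305A against the Hygro vector (3), 7 for MRTFB dN Y305A/dPY against the Puro vector (11) and 1 against the Hygro vector (3), and 6 for the Puro against the Hygro vector (11). YAP 5SA against the Hygro vector gave 0 genes with scaling by the median of ratios and 0 with the zeros of MRTFB dN dPY replicate 1 kept as values; the cause was not tested. The labels give the groups the same replicate numbers but do not say what a number marks. The correlation of the replicate differences between groups ran from -0.15 to 0.64 over all pairs of groups and from 0.31 to 0.64 among the 4 MRTFB groups. In the other pairs of groups it was at most 0.24 (Hygro and Puro vector). Whether the numbers mark pairs within the MRTFB groups was not tested. The main fit did not take the numbers as pairs, also not between MRTFB forms. With the replicate number as a block over all groups the counts were 16 for MRTFB dN against the Puro vector (16 without the block), 12 against the Hygro vector (11), 10 for MRTFB dN Y305A against MRTFB dN (9) and 15 for MRTFB dN Y305A/dPY against MRTFB dN dPY (14), and no count moved by over 1.5 times. The block within the MRTFB groups gave 4 genes for YAP 5SA against the Hygro vector, 5 for MRTFB dN Y305A against it and 1 for the PY deletion in the form without SRF binding. For the refits without 1 library the share of all loci called was not computed, so their counts were not set against all loci. FPKM carries no counts, so how far depth limits genes of low level such as CDKN1C and PPM1D is not known.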

Other observations

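Of 16 genes of G2 and mitosis, 12 were lower and 0 higher in MRTFB dN dPY against the Puro vector, with a median log2 difference of -2.15 against 0.07 over all loci, of which 14.8% were lower. In MRTFB dN against the same vector 2 were lower, CENPF (-2.52 ± 0.37, adjusted p = 0.00070) and MKI67 (-1.46 ± 0.43, adjusted p = 0.022), where 15% of all loci were. In MRTFB dN Y305A/dPY 6 were lower (median -1.26; 11.4% of all loci). In the direct comparison of MRTFB dN dPY with MRTFB dN, 0 of the 16 passed, with a median of -1.32 and 13 at an unadjusted p under 0.05, beside 3.33% of all loci. CENPF, a kinetochore protein, read 23.7 and 17.7 in the Puro vector, 2.79 and 4.46 in the Hygro vector and 2.20 and 3.39 in MRTFB dN (FPKM), and the Puro vector libraries were above the Hygro vector libraries. Against the Hygro vector 3 of the 16 were lower in MRTFB dN dPY (median -1.04) and none in MRTFB dN (median 0.32), where 8.25% and 7.09% of all loci were. YAP 5SA had 4 of the 16 higher than the Hygro vector, with a median of 1.41 (3.93% of all loci were higher).

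Of 11 tested genes of the G1/S step, 3 were higher and 0 lower in MRTFB dN against the Puro vector, with a median log2 difference of 0.41 (21.8% and 15% of all loci). With the Hygro vector as control 0 were higher and 3 lower (12% and 7.09% of all loci), while the median, 0.45, had the opposite sign. CCND1, the cyclin of early G1, was one of those lower and read 74.5 and 26.6 in the Hygro vector, 14.9 and 10.1 in the Puro vector, 10.97 and 9.64 with MRTFB dN and 7.19 and 7.90 with MRTFB dN dPY. It differed in MRTFB dN from the Hygro vector by -2.02 ± 0.39, adjusted p = 0.0045 and from the Puro vector by -0.23 ± 0.39, adjusted p = 0.67, and the second did not pass. Of 11 genes of the integrated stress response, 5 were higher and 0 lower in the Puro than in the Hygro vector (5.68% and 8.54% of all loci). In MRTFB dN 2 were higher and 4 lower than the Puro vector, and 3 and 0 against the Hygro vector, beside 21.8% and 15%, and 12% and 7.09%, of all loci. ATF4, the central factor of this response, was higher against both (1.23 ± 0.29, adjusted p = 0.0079; 1.18 ± 0.29, adjusted p = 0.015). SLC7A11, the cystine transporter, was lower than the Puro vector (-2.40 ± 0.31, adjusted p = 0.00031) and gave 0.23 ± 0.31, adjusted p = 0.67 against the Hygro vector, which did not pass.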
